A study of Homo sapiens with 8 samples.

Results

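The nuclear-encoded genes of the mitochondrial respiratory chain were followed across A549 cells treated with interferon-γ (IFN-γ), with the kinase inhibitor AX-0085, or with both. Members were taken by name from the protein-coding genes of the count table: the NDUF subunits of complex I, the SDH subunits of complex II, the UQCR subunits of complex III, COX4 to COX8 of complex IV and the ATP5 subunits of complex V. The names matched 87 protein-coding genes among the 60664 genes of the table. Of these, 17 had no count in any of the 8 libraries, and the other 70 are the members described here. They comprise 31 genes of complex I, 3 of complex II, 8 of complex III, 14 of complex IV and 14 of complex V. NDUFA4 was counted with complex IV, of which it is a known subunit despite its name. The name rule used no expression value apart from the requirement of at least 1 count, but it was chosen with earlier results of these data known.

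The respiratory chain lies in the inner mitochondrial membrane. Complexes I and II feed electrons from NADH and succinate to ubiquinone, complex III passes them to cytochrome c, and complex IV reduces oxygen. The proton gradient built by complexes I, III and IV drives ATP synthesis by complex V, the ATP synthase. Most subunits are encoded in the nucleus and imported, while the mitochondrial genome encodes some of the subunits of complexes I, III, IV and V, so that both genomes supply each of these complexes.

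RNA came from A549, a human lung adenocarcinoma cell line, in 4 groups of 2 libraries. Untreated cells received neither agent. In the IFN-γ groups, 20 ng of IFN-γ was added (the labels state no volume). After 24 h AX-0085 was added to 0.5 μM where the group received it, with harvest after another 24 h. The steps were also 24 h and 24 h for AX-0085 alone, at 0.5 μM, and for untreated cells. The labels do not say whether the 2 libraries of a group came from separate cultures, so the p-values measure the spread between these libraries, which may be technical. Every group is the same established line, and none carries a genetic change made by the study.

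Total counts lay between 20672828 and 29978251 per library, and a floor of 3 counts per library corresponds to 0.100 to 0.145 CPM. CPM are counts scaled to library size, here with TMM factors, and the floor covers counting error only. Genes were tested with edgeR's quasi-likelihood test with all 8 libraries in one model, and p-values were adjusted by Benjamini-Hochberg over the 15066 genes that passed the expression filter. The epithelial keratins KRT7, KRT8 and KRT18 were at 927 CPM or more in every library, but the epithelial markers moved with the treatments. Of 5 such markers, 4 were lower with IFN-γ, all past 2-fold (KRT8, KRT18, CDH1 and EPCAM; median of the 5 -1.40 on the log2 scale), and 3 were higher when AX-0085 followed IFN-γ. Their summed level was 8779 and 9506 CPM in untreated cells, 7388 and 6502 CPM with IFN-γ, 6043 and 5713 CPM with AX-0085, and 7281 and 7196 CPM with both. Of 7 markers of leukocytes, fibroblasts and endothelium, CD3E and CD68 had no count and PTPRC had 2 counts in all. The summed level of the 7 was 9.46 and 11.3 CPM in untreated cells, 4.49 and 2.89 CPM with IFN-γ, 9.52 and 9.86 CPM with AX-0085, and 6.97 and 8.45 CPM with both. COL1A1, a collagen gene and the 1 of them that could be tested, was lower with IFN-γ (log2 fold change -1.45, edgeR adjusted p = 8.98e-06) and higher when AX-0085 followed IFN-γ (1.10, edgeR adjusted p = 0.000171). All 4 proliferation markers were lower with IFN-γ (median -0.66) and with AX-0085 (median -1.22). The part of these marker changes in the changes of the members was not tested. No pair of libraries looked like a repeat deposit, since chi-square divided by its degrees of freedom was 9.50 to 31.6 within groups.

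Several well-known subunits could not be followed because the table lists no count for them. SDHA, the flavoprotein subunit of complex II, COX8A of complex IV, and NDUFA9, NDUFB8 and NDUFC2 of complex I were listed at 0 in all 8 libraries, as were ATP5MC1, ATP5PO and ATP5PD of complex V. In the GENCODE 44 annotation, all exon bases of each of these genes lie inside the span, from start to end, of another annotated gene. For SDHA, the other gene is on the same strand. Of the 21 matching genes with at least 80% of their exon bases inside another gene, 15 were at 0, 20 had at most 30 counts over all libraries, and the highest total was 252 (NDUFA13). Of the 66 genes with less overlap, 2 were at 0, the tissue isoforms COX4I2 and COX6A2, and the median total was 17260. ATP5MC1 and ATP5PD overlap only genes on the opposite strand. The strand setting and the treatment of reads that fall on several genes are not given in the sources used here, so a count of 0 limits the counts assigned to such a gene and not its expression.

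The expression filter kept 64 of the 70 members. The other 6 had few counts over all 8 libraries: COX6A1 had 26, COX7A1 had 25, NDUFV2 had 15, NDUFA11 had 9, and SDHD and the read-through gene ATP5MF-PTCD1 had 2 each. All except COX7A1, the heart and skeletal muscle isoform of subunit 7A, have at least 91.9% of their exon bases inside another gene. Of complex II, therefore, only SDHB, the iron-sulfur subunit, and SDHC, a membrane anchor, could be tested.

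The members differed widely in level. By TPM, which divides counts by exon length before scaling to the library, the highest member in untreated cells was ATP5F1B, the catalytic β subunit of ATP synthase, at 2331 ± 102 TPM (SD, n = 2). NDUFA1, a small membrane subunit of complex I, followed at 996 ± 9.69 TPM, and COX6B1, a subunit of complex IV that faces the intermembrane space, at 788 ± 26.8 TPM. These 3 levels did not overlap. With the length of the canonical transcript in place of all exons, an alternative chosen after seeing the data, ATP5F1B was still first at 1708 TPM, COX6B1 was second at 1274 TPM and ATP5MC2, a c-ring subunit of ATP synthase, next at 948.5 TPM. Ranks of single members moved by up to 30 places between the lengths, so the order below the top is not fixed by these data. ATP5F1B alone took between 12.7% and 17.5% of the counts of all members in a library.

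Summed over all members, the respiratory chain genes took 0.899% and 0.935% of all counts in untreated cells, 0.741% and 0.689% with IFN-γ, 0.857% and 0.806% with AX-0085, and 0.811% and 0.769% with both. The untreated libraries were highest and the IFN-γ libraries lowest, with no overlap between the groups other than between AX-0085 and both. With 2 libraries against 2, an exact permutation test of such a sum cannot give a p under 0.333, so these shares were not tested. In such bulk RNA, fewer expressing cells and less RNA per cell cannot be told apart. Complex IV members took 0.179% and 0.185% of the counts in untreated cells and 0.200% and 0.190% with AX-0085. Of its 12 tested members, 2 passed as higher with AX-0085 and 1 as lower. COX7A2L, 1 of the 2, went from 4444 and 3572 counts to 6384 and 6544, and the share without it was not computed. The shares of complexes I, II, III and V were lower with AX-0085 than in either untreated library. Mitochondrially encoded transcripts moved beside these shares, at 1.71% to 1.82% of the counts with IFN-γ, 2.72% to 3.55% in untreated cells, 4.12% to 5.73% with AX-0085 and 2.87% to 3.43% with both, and their part in the shares was not tested.

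**Figure D1:**
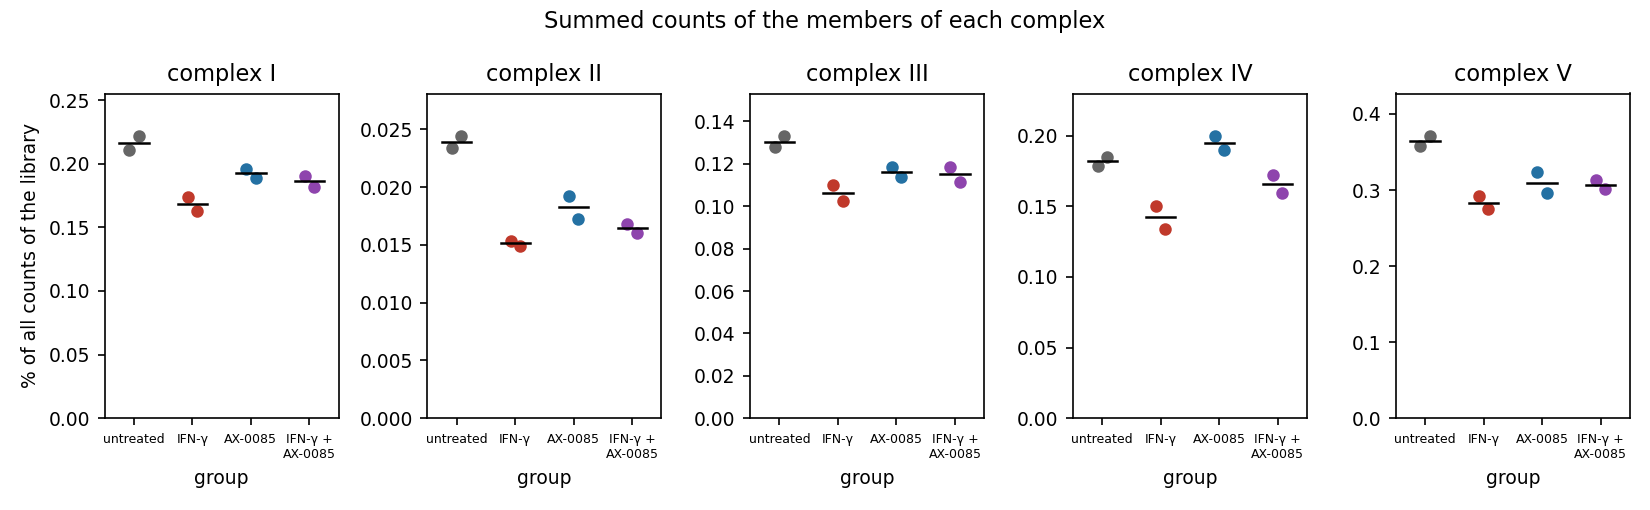
Percent of all counts of a library (y axis) taken by the members of complexes I to V, with 1 panel per complex and 1 point per library in each of the 4 groups on the x axis; horizontal bars are means of 2 libraries. For complex IV, the AX-0085 libraries at 0.200% and 0.190% lie above the untreated ones at 0.179% and 0.185%, and in the other complexes they lie below. The complex IV share includes COX7A2L, which rose with AX-0085.

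The first question was how IFN-γ alone changed these genes. Against untreated cells, 35 of the 64 tested members (54.7%) were lower and 8 were higher at an adjusted p under 0.05. Among all genes tested, 36% were lower and 32.1% were higher. Past a 2-fold change as well, 5 members were lower and 1 was higher, beside 17.2% and 10.3% of all genes. The median log2 fold change of the members was -0.31 and that of all genes -0.06, so most changes were smaller than 2-fold. Scaling by library size alone, which shifted the median of all genes by -0.12, gave 44 members lower and 3 higher. Without IFN-γ replicate 2 the median of the members was -0.13, without IFN-γ replicate 1 it was -0.41 with 3 members higher, and without untreated replicate 1 there were 5 members higher.

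**Figure D2:**
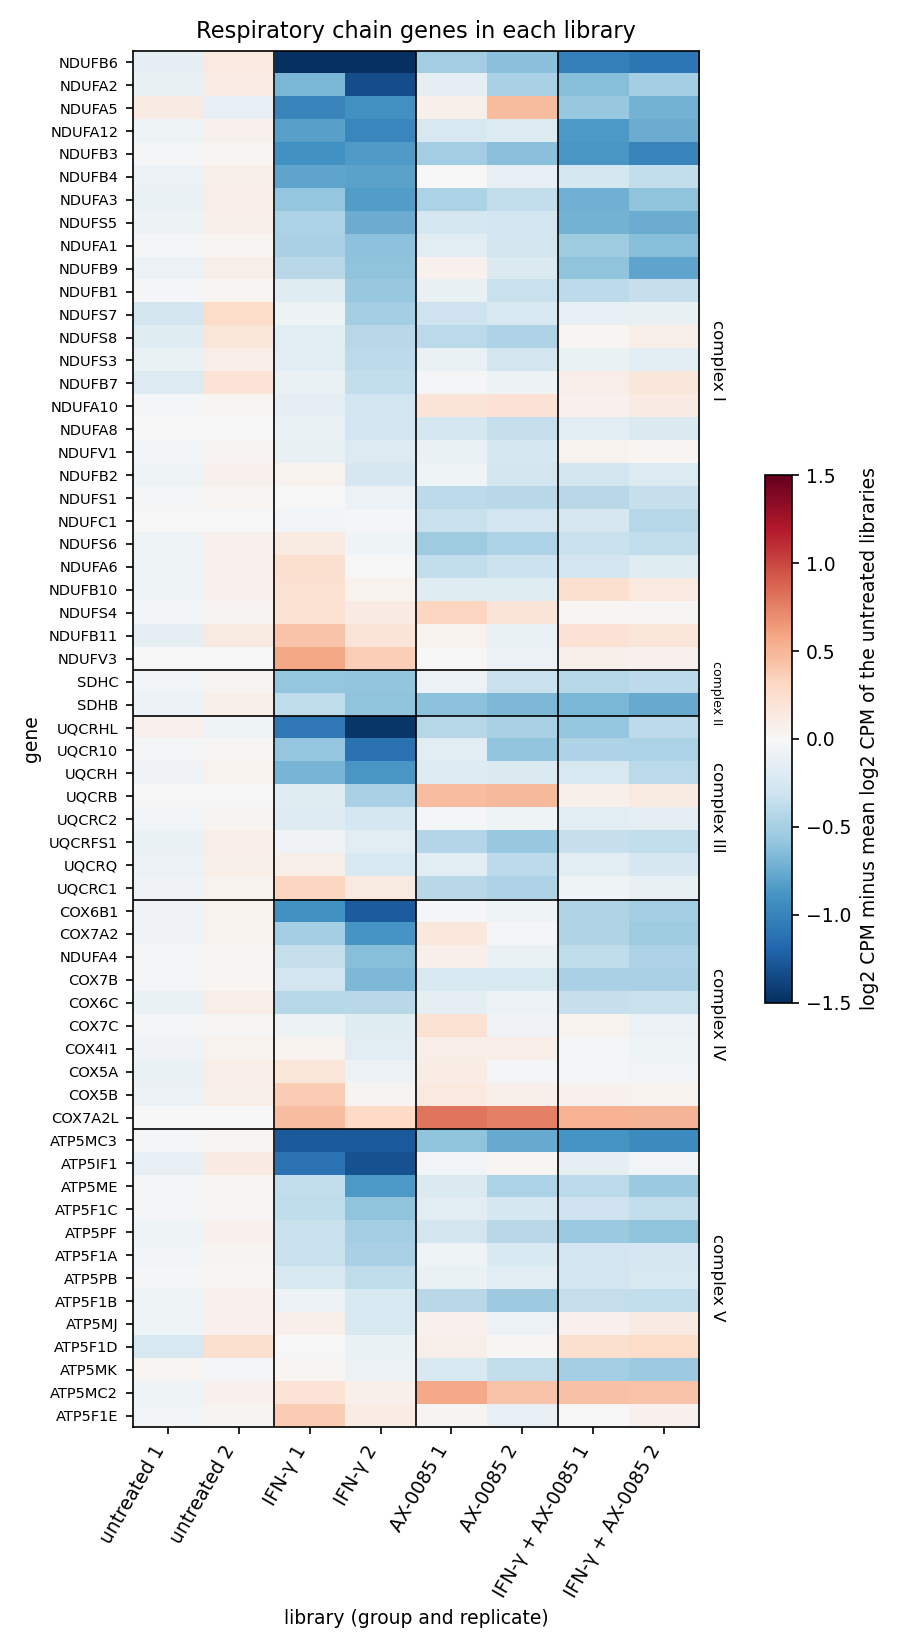
Heat map of 60 members with at least 1 CPM in every library (rows, grouped by complex and ordered by their mean with IFN-γ) in the 8 libraries (columns). Colour gives the log2 CPM minus the mean log2 CPM of the untreated libraries, cut at 1.5 in size; the IFN-γ columns hold the deepest blue, for NDUFB6, and COX7A2L is red in all treated columns.

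In complex I, 16 of 29 tested members fell and 4 rose with IFN-γ. NDUFB6, an accessory subunit of the membrane arm on chromosome 9 (32553001 to 32573184, minus strand, GRCh38), was at 33.8 and 41.4 CPM in untreated cells, against 9.82 and 11.6 CPM with IFN-γ. Both IFN-γ libraries lay far below both untreated ones. Its log2 fold change was -1.80 (standard error 0.11, edgeR adjusted p = 1.22e-08), the deepest fall among the tested members. In GENCODE 44, 71.4% of its exon bases lie inside annotated genes on the opposite strand and none inside a gene on its own strand. Among the accessory subunits named NDUFA, 7 of 9 fell, with a median of -0.56 on the log2 scale; NDUFA2 (-0.99), NDUFA5 (-0.96) and NDUFA12 (-0.90) fell most, while NDUFA13 rose. Among those named NDUFB, 5 of 9 fell.

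Of the core subunits of complex I, which carry its redox centers, 6 were tested and 3 fell, among them NDUFS8 (-0.29) and NDUFS3 (-0.27), and the libraries of NDUFS8 overlapped between the groups. NDUFS1, the large iron-sulfur subunit, was at 159 and 165 CPM in untreated cells, against 163 and 153 CPM with IFN-γ, and these ranges overlapped. NDUFV1, the flavin-binding subunit that takes electrons from NADH, had a log2 fold change of -0.15 that missed the threshold (edgeR adjusted p = 0.0517) and passed without IFN-γ replicate 1 (-0.19) or without AX-0085 replicate 1. The 4 members that rose were NDUFV3 (0.48), NDUFB11 (0.31), NDUFS4 (0.17) and NDUFA13 (1.87). NDUFA13, also known as GRIM-19, rose from 19 and 18 counts to 44 and 65, and 81.9% of its exon bases lie inside other genes, so its value rests on few reads.

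Both tested subunits of complex II fell with IFN-γ. SDHC was at 121 and 128 CPM in untreated cells, against 83.7 and 82.6 CPM with IFN-γ, a change of -0.59 ± 0.07 (log2, standard error; edgeR adjusted p = 1.18e-05). SDHB went from 104 and 116 CPM to 84.1 and 72.3 CPM, a log2 fold change of -0.49 (edgeR adjusted p = 0.000112). For each gene the groups did not overlap.

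In complex III, 5 members fell and 1 rose. Of the 5 small subunits, 4 fell, with a median log2 fold change of -0.79. UQCRH, the hinge protein, went from 153 and 164 CPM to 97.9 and 86.3 CPM (-0.79, edgeR adjusted p = 6.46e-07), and UQCR10 from 26.7 and 27.2 CPM to 18.1 and 12.5 CPM (-0.84, edgeR adjusted p = 0.000271). UQCRHL had a log2 fold change of -1.27, but it is a near-identical retrocopy of UQCRH with at most 112 counts in a library, and reads could be split between the copies. UQCRC1, a core subunit, rose from 197 and 212 CPM to 256 and 224 CPM (0.23, edgeR adjusted p = 0.00884), and this call was lost without IFN-γ replicate 1 (edgeR adjusted p = 0.0683). UQCRFS1, the Rieske iron-sulfur protein, was at 323 and 369 CPM and then at 333 and 308 CPM, with overlapping groups.

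In complex IV, 5 of 12 tested members fell and 2 rose. COX6B1 (chromosome 19, 35648323 to 35658782, plus strand) went from 291 and 315 CPM to 161 and 128 CPM, a change of -1.07 ± 0.09 (log2, standard error; edgeR adjusted p = 1.82e-07). NDUFA4 (-0.50), COX7A2 (-0.69), COX7B (-0.47) and COX6C (-0.43) also fell. COX4I1 and COX5A, which belong to the early core of the complex around the mitochondrially encoded subunits, had overlapping groups and log2 fold changes of -0.06 and 0.05. COX4I1 passed as lower without IFN-γ replicate 1 (-0.16) and COX5A as higher without IFN-γ replicate 2 (0.23). COX5B rose (0.22, edgeR adjusted p = 0.0496) although its groups overlapped. COX7A2L, a factor that binds complexes III and IV into supercomplexes, rose from 147 and 145 CPM to 201 and 180 CPM (0.38, edgeR adjusted p = 0.000106).

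In complex V, 7 of 13 tested members fell and 1 rose. ATP5MC3, 1 of the genes for the c-ring subunit, went from 291 and 301 CPM to 123 and 123 CPM, a change of -1.26 ± 0.06 (log2, standard error; edgeR adjusted p = 1.09e-09). ATP5IF1, the inhibitor that blocks ATP hydrolysis by the enzyme, went from 41.5 and 49.6 CPM to 21.1 and 18.3 CPM (-1.21, edgeR adjusted p = 2.13e-07). Both genes were more than 2-fold lower in the fit, and no library of the IFN-γ group reached an untreated one. ATP5F1A, the α subunit, went from 548 and 582 CPM to 447 and 403 CPM (-0.41, edgeR adjusted p = 0.000208). ATP5F1B was at 1396 and 1533 CPM and then at 1379 and 1253 CPM, a change that missed the threshold (-0.15, edgeR adjusted p = 0.0884) but passed without IFN-γ replicate 1 (-0.21). ATP5F1E, the small ε subunit, was the member that rose (0.25, edgeR adjusted p = 0.0157).

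**Figure D3:**
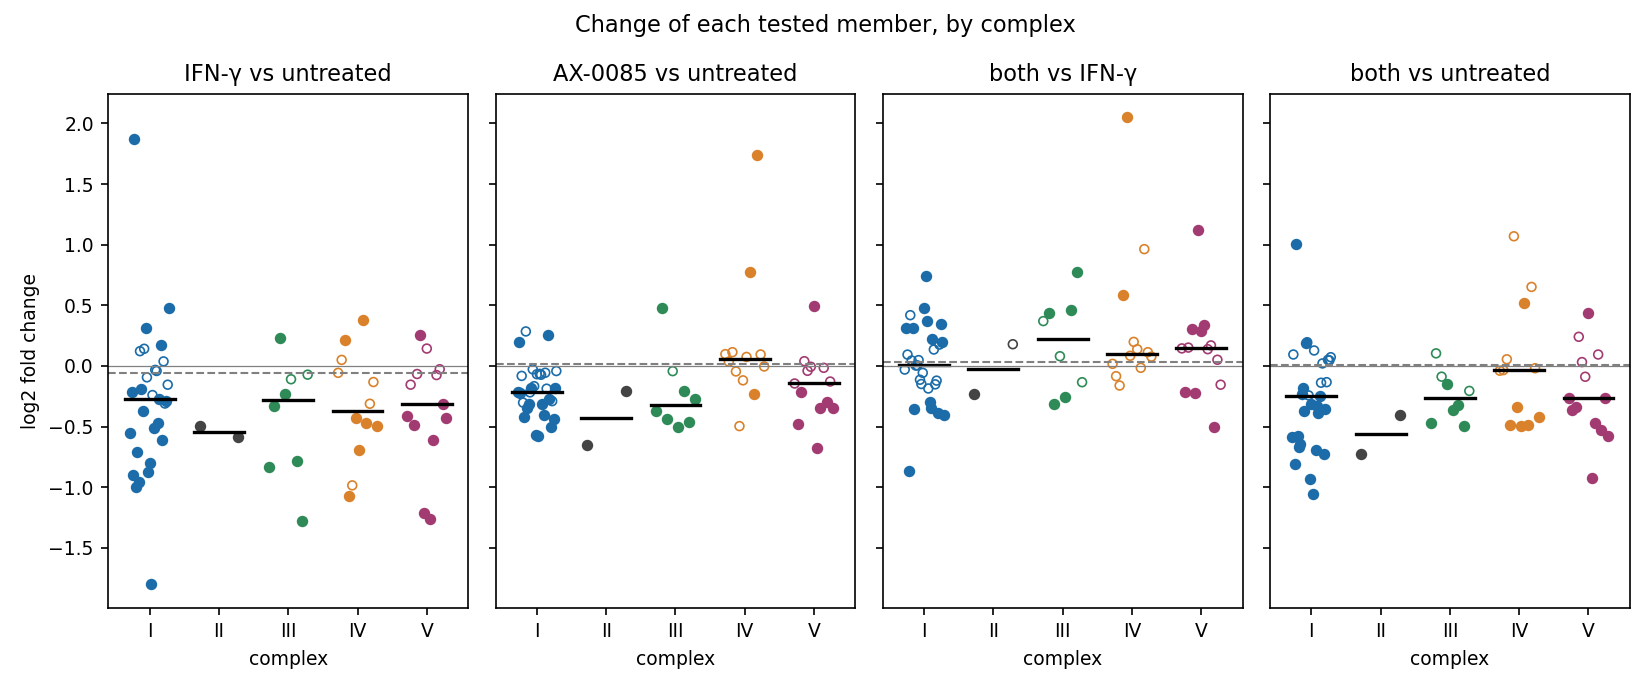
Log2 fold change (y axis) of each tested member, by complex on the x axis, in 4 comparisons; filled points passed an adjusted p of 0.05, open points did not, black bars are medians of a complex and the dashed line is the median of all genes tested. With IFN-γ the medians of the 5 complexes lie between -0.54 and -0.27, and with AX-0085 alone the median of complex IV is 0.05 while the others lie below 0.

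Promoter sequences are shown for members that fell or rose together, since nuclear respiratory genes are known to share binding sites for a few factors. RefSeq promoter windows on GRCh38.p14, from 250 bases before to 50 after the gene start, were found for 57 of the 70 members. Letters were searched on both strands. GCATGCGC, part of the site of NRF1, was in 22.8% of the member windows, against 3.27% of all 27305 windows and 5.25% of those of tested genes. CCGGAAG, read by ETS factors such as GABP, was in 28.1% against 10.7% and 18.1%, and AAGATGGC, read by YY1, in 14.0% against 3.03% and 5.08%. Other gene sets held these letters as well: in promoters of mitochondrial ribosomal protein genes the ETS letters were in 42.0% and the YY1 letters in 29.0%, and in those of cytosolic ribosomal protein genes the shares were 31.9% and 8.70%. The NRF1 letters were in 8.70% and 4.35% of those windows. The E-box CACGTG was in 7.02% against 7.44% and 9.80%. Of the members that fell with IFN-γ and had a window, 6 of 26 held the NRF1 letters, beside 5 of 27 for the other tested members. The ETS letters were in 7 of 26 and 7 of 27, so they were about as frequent in members that did not fall. The YY1 letters were in 4 of 26 and 4 of 27, and the E-box in 2 of 26 and 1 of 27. The windows of 29 members held none of the 4 motifs, and matches of different motifs overlapped in 0 members. A match is a description of letters and not evidence of binding.

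The 250 bases before the start are printed for UQCRH (chr1:46303448-46303697 on the plus strand) and COX6B1 (chr19:35648073-35648322 on the plus strand), which fell with IFN-γ and hold the ETS letters, for ATP5MC2 (chr12:53676084-53676333 on the minus strand), which rose with AX-0085 and holds the NRF1 letters, and for NDUFB6 (chr9:32573160-32573409 on the minus strand), which fell most and holds none of the motifs. Capitals mark the matches, and sequences run 5′ to 3′ along the gene's strand.
UQCRH: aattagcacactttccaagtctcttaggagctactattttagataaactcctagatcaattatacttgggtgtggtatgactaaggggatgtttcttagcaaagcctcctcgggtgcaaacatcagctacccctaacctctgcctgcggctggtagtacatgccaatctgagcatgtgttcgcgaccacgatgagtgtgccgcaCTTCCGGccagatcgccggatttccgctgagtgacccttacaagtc
COX6B1: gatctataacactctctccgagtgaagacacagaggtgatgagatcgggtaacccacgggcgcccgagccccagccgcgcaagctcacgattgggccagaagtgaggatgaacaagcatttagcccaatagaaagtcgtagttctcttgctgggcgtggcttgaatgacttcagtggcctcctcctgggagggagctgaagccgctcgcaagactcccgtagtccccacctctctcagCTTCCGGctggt
ATP5MC2: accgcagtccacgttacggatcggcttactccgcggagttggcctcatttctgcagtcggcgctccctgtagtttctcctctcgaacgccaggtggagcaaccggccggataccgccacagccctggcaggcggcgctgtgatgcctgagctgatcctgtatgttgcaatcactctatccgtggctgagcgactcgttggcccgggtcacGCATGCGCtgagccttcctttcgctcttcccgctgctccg
NDUFB6: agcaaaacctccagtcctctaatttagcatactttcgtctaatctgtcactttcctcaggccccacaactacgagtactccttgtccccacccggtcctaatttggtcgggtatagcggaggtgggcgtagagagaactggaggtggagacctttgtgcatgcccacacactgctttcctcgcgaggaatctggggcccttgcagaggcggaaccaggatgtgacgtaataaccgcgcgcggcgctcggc

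The second question was what AX-0085 did by itself. Against untreated cells, 29 of the 64 members (45.3%) were lower and 6 were higher at an adjusted p under 0.05, beside 26.6% and 26.7% of all genes. No member was lower by more than 2-fold and 1 was higher, beside 5.62% and 6.41% of all genes. The median log2 fold change of the members was -0.19 and that of all genes 0.01. The falls were therefore shallow, and the number lower was 16 without untreated replicate 2 and 14 without AX-0085 replicate 2.

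The falls with AX-0085 fell into complexes I, II, III and V, with 14, 2, 6 and 6 members, and 1 member of complex IV was lower. Of the named genes outside complex IV, NDUFV1, SDHC, UQCR10, UQCRH and UQCRHL lost their calls without single libraries. The other members were not followed by name in these fits, so this list is not complete. Without AX-0085 replicate 2, SDHC was at -0.08, NDUFV1 at -0.10 and UQCR10 at -0.17 on the log2 scale. UQCRHL also missed the threshold in DESeq2 (adjusted p = 0.207). SDHB went from 104 and 116 CPM in untreated cells to 71.5 and 68.6 CPM with AX-0085, a change of -0.65 ± 0.08 (log2, standard error; edgeR adjusted p = 1.85e-05). UQCRFS1 went from 323 and 369 CPM to 254 and 233 CPM (-0.51, edgeR adjusted p = 6.64e-05), and UQCRC1 from 197 and 212 CPM to 154 and 148 CPM (-0.44, edgeR adjusted p = 0.000128). These subunits carry or support the electron path of complexes II and III. ATP5F1B fell from 1396 and 1533 CPM to 1098 and 999 CPM (-0.48, edgeR adjusted p = 0.000147), NDUFS1 from 159 and 165 CPM to 123 and 122 CPM (-0.40, edgeR adjusted p = 5.56e-05), and NDUFB6 from 33.8 and 41.4 CPM to 26.1 and 24.3 CPM (-0.57, edgeR adjusted p = 0.000359). ATP5MC3 fell from 291 and 301 CPM to 195 and 175 CPM (-0.68, edgeR adjusted p = 1e-06).

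In complex IV, 9 of 12 members passed in neither direction with AX-0085. COX4I1 was at 327 and 355 CPM in untreated cells and 365 and 364 CPM with AX-0085, and COX6B1 at 291 and 315 CPM and then 297 and 290 CPM, with overlapping groups for COX6B1. COX7B was lower by a log2 fold change of -0.23 (edgeR adjusted p = 0.0441), a call that was lost without any 1 of 6 libraries. COX7A2L rose from 147 and 145 CPM to 254 and 246 CPM, a change of 0.77 ± 0.06 (log2, standard error; edgeR adjusted p = 3.2e-07). COX7B2, an isoform of subunit 7B known from testis, went from counts of 9 and 2 to counts of 22 and 13 (1.74, edgeR adjusted p = 0.0143). That call rests on few reads and was lost without untreated replicate 2 (edgeR adjusted p = 0.115), without AX-0085 replicate 1 (edgeR adjusted p = 0.1505) and in DESeq2 (adjusted p = 0.0813).

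Outside complex IV, the members higher with AX-0085 were ATP5MC2 (0.50), UQCRB, a small ubiquinone-binding-site subunit of complex III (0.48), NDUFS4 (0.26) and NDUFA10 (0.20). ATP5MC2 rose from 278 and 306 CPM to 432 and 391 CPM (edgeR adjusted p = 5.98e-05). UQCRB was at 165 and 166 CPM and then at 229 and 232 CPM (edgeR adjusted p = 0.000206).

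The third question was what AX-0085 changed in cells already treated with IFN-γ. Compared with IFN-γ alone, 17 of the 64 members (26.6%) were higher and 12 were lower, beside 33.7% and 32.8% of all genes. Past a 2-fold change, 2 were higher and none was lower, beside 16.5% and 8.28% of all genes. The median log2 fold change of the members was 0.08 and that of all genes 0.03, so that as a group they moved no more often than other genes. The split depended on scaling and on single libraries. With library size alone it was 33 higher and 7 lower. Without IFN-γ replicate 2 it was 10 higher and 21 lower, with a median of -0.03, without IFN-γ replicate 1 there were 26 higher with a median of 0.17, and without replicate 2 of the group given both agents there were 11 higher and 7 lower.

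ATP5IF1 moved most among well-covered members. It was at 21.1 and 18.3 CPM with IFN-γ, against 41.3 and 44.2 CPM with both, a change of 1.12 ± 0.10 (log2, standard error; edgeR adjusted p = 5.6e-07). The libraries with both agents lay within or beside the untreated range of 41.5 to 49.6 CPM. NDUFB6 rose from 9.82 and 11.6 CPM to 18.4 and 17.6 CPM (0.74, edgeR adjusted p = 0.000103), COX6B1 from 161 and 128 CPM to 221 and 212 CPM (0.59, edgeR adjusted p = 6.34e-05), and UQCRH from 97.9 and 86.3 CPM to 134 and 120 CPM (0.46, edgeR adjusted p = 0.000105). ATP5MC3 rose from 123 and 123 CPM to 159 and 152 CPM (0.34, edgeR adjusted p = 0.000336). Of these, NDUFB6, COX6B1, UQCRH and ATP5MC3 with both agents lay below both untreated libraries. COX6B2, a testis isoform of subunit 6B, went from counts of 1 and 5 to counts of 16 and 15 (2.05, edgeR adjusted p = 0.00694), and this call was lost without IFN-γ replicate 1 (edgeR adjusted p = 0.0602) and in DESeq2 (adjusted p = 0.0523).

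Members that were lower when AX-0085 followed IFN-γ included NDUFS1, from 163 and 153 CPM to 121 and 127 CPM (-0.34, edgeR adjusted p = 0.000145), and UQCRC1, from 256 and 224 CPM to 196 and 190 CPM (-0.32, edgeR adjusted p = 0.00107). ATP5MK, a small membrane subunit of ATP synthase, had the deepest fall among well-covered members, from 78.4 and 72.3 CPM to 53.8 and 52.6 CPM (-0.50, edgeR adjusted p = 4.01e-05). SDHB was lower by -0.23 (edgeR adjusted p = 0.0259), a call that was lost without IFN-γ replicate 1 (edgeR adjusted p = 0.190) and without either library given both agents. COX4I1 was at 354 and 302 CPM and then at 337 and 326 CPM, and COX5A at 200.4 and 166 CPM and then at 173 and 172 CPM, with overlapping groups for each. COX5A passed as lower without IFN-γ replicate 2 (-0.22), and COX7B, at -0.02, passed as higher without IFN-γ replicate 1 (0.18) and as lower without IFN-γ replicate 2 (-0.20).

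Whether AX-0085 acted differently once IFN-γ was present was tested by the interaction term of the same model. At an adjusted p under 0.05, the interaction was positive for 23 members (35.9%) and negative for 3, beside 26.7% and 23.6% of all genes. Past 2-fold it was positive for 5 members and negative for none, beside 12.1% and 6.46% of all genes. The count of 5 was 2 without untreated replicate 2, where ATP5IF1 and ATP5MC3 were each at 0.99 and COX6B2 was not called, and 3 in DESeq2. The median over the members was 0.20 and that over all genes 0.05. Library size alone gave 38 positive and 2 negative. DESeq2 gave 16 positive and 3 negative, beside 3053 positive and 3250 negative of the 15066 genes tested. The number positive was 14 without IFN-γ replicate 2, where 8 were negative, and 15 without AX-0085 replicate 2 or without either library given both agents.

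NDUFB6 had an interaction of 1.32 (standard error 0.16, edgeR adjusted p = 1.54e-05), with AX-0085 lowering it in the absence of IFN-γ (-0.57) and raising it in its presence (0.74). ATP5MC3 followed the same pattern, at -0.68 and 0.34, with an interaction of 1.01 (edgeR adjusted p = 8.61e-07). ATP5IF1 was at -0.01 without IFN-γ and 1.12 with it (interaction 1.13, edgeR adjusted p = 2.25e-05). UQCRHL (1.24) and COX6B2 (2.55) were the other members past 2-fold, both with low counts, and the call for COX6B2 was lost without any 1 of 4 libraries. The negative interactions were those of COX7A2L (-0.64, edgeR adjusted p = 4.76e-05), NDUFS4 (-0.41) and NDUFV3 (-0.36). COX7A2L was raised by AX-0085 in the absence of IFN-γ by 0.77 and differed by 0.14 in its presence, which missed the threshold (edgeR adjusted p = 0.0615) but passed without IFN-γ replicate 1 (0.21).

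**Figure D4:**
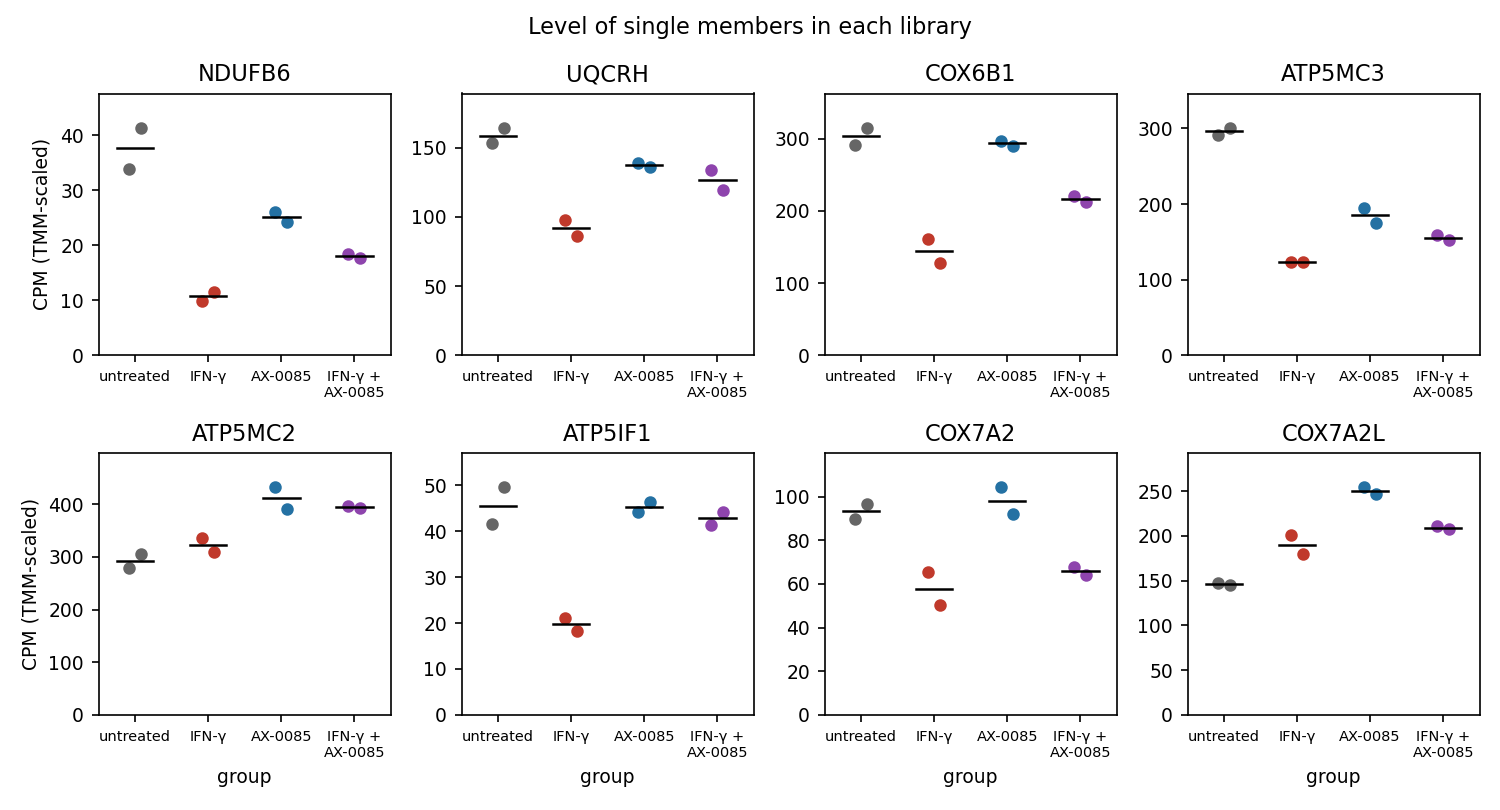
CPM after TMM scaling (y axis, from 0) of 8 members in the 2 libraries of each group (points), with the mean as a bar. ATP5IF1 is low in the IFN-γ libraries (21.1 and 18.3) and between 41.3 and 49.6 in all others, whereas COX7A2L is lowest in the untreated libraries (147 and 145).

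Cells given both agents were also compared with untreated cells and with AX-0085 alone. Against untreated cells, 37 members (57.8%) were lower and 4 were higher, beside 28.8% and 28.1% of all genes, and the median was -0.26 against 0.01 for all genes. Past 2-fold, 1 was lower and 1 higher, beside 7.23% and 7.51% of all genes. NDUFB6 was the one lower (-0.91 without untreated replicate 2, and so no longer past 2-fold), at 18.4 and 17.6 CPM with both against 33.8 and 41.4 CPM (-1.06, edgeR adjusted p = 1.9e-06), and ATP5MC3 had a log2 fold change of -0.93 (edgeR adjusted p = 4.29e-08). SDHB was at 68.4 and 64.8 CPM (-0.72, edgeR adjusted p = 6.03e-06) and UQCR10 at 19.6 and 19.4 CPM (-0.47, edgeR adjusted p = 0.0144), the call for UQCR10 being lost without untreated replicate 1 or either library given both agents. The members higher were COX7A2L (0.52), ATP5MC2 (0.43), NDUFB10 (0.19) and NDUFA13 (1.00, on few counts, and under 2-fold without untreated replicate 1 or replicate 1 of both agents). ATP5IF1 had overlapping groups and a log2 fold change of -0.09. The number higher was 8 without untreated replicate 2 or without IFN-γ replicate 2.

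Against AX-0085 alone, IFN-γ with AX-0085 left 21 members (32.8%) lower and 6 higher, beside 17.4% and 17.3% of all genes. Past 2-fold, none was lower and 2 were higher, NDUFA13 and COX6B2, both with low counts and both no longer called without AX-0085 replicate 2 or replicate 1 of both agents, beside 1.73% and 1.79% of all genes. The median was -0.11 against -0.01 for all genes. In complex IV, 6 members were lower, among them COX7A2 (-0.57), COX6B1 (-0.44), NDUFA4 (-0.42) and COX7A2L (-0.26). NDUFA5 (-0.93) and NDUFB9 (-0.62) of complex I fell most. UQCRC1 (0.35), NDUFB10 (0.37), NDUFS8 (0.49) and NDUFV1 (0.23) were higher. Without either library given both agents, the calls for COX7A2L and NDUFV1 were lost. NDUFA5, NDUFB9, NDUFB10 and NDUFS8 were not followed by name in these fits. The number lower was between 10 and 11 without AX-0085 replicate 1 or without either library given both agents, and the number higher was 3 without AX-0085 replicate 2 or without replicate 1 of both agents.

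Of 3 pairs of paralogues compared, 2 shifted in ratio with every treatment. ATP5MC3 and ATP5MC2 encode the same mature c-ring subunit with different import sequences. The ratio of their counts was 1.05 and 0.983 in untreated cells, 0.367 and 0.400 with IFN-γ, 0.450 and 0.449 with AX-0085, and 0.400 and 0.388 with both. All treated libraries lay below both untreated ones, as ATP5MC3 fell with each agent and ATP5MC2 rose with AX-0085. The ratio of COX7A2 to COX7A2L was 0.611 and 0.664 in untreated cells and between 0.280 and 0.410 in the treated libraries. UQCRH and its retrocopy UQCRHL fell together with IFN-γ, and the ratio of UQCRHL to UQCRH was 0.0242 and 0.0206 in untreated cells, 0.0173 and 0.0149 with IFN-γ, 0.0189 and 0.0185 with AX-0085, and 0.0177 and 0.0225 with both, the last overlapping the untreated ones. These are ratios within a library and do not depend on scaling, but they compare counts of transcripts that differ in length. ATP5MC1, the remaining c-ring gene, was listed at 0. Of the remaining isoform sets, COX4I2, COX6A2, COX8A and COX8C were at 0, and COX6A1 and COX7A1 did not pass the filter, so no second isoform could be compared for them.

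The ratio of ATP5IF1 to ATP5F1B, the inhibitor against the catalytic subunit, was 0.0297 and 0.0323 in untreated cells, against 0.0153 and 0.0146 with IFN-γ. It was 0.0402 and 0.0464 with AX-0085 and 0.0363 and 0.0390 with both, so that the IFN-γ libraries lay below all others and those with AX-0085 above the untreated ones.

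Other genes of the pathway were set beside the members. Of the 13 mitochondrially encoded subunits, 12 were lower and none was higher with IFN-γ, with a median of -0.92. With AX-0085 alone 10 were higher and none lower, with a median of 0.50, so that nuclear and mitochondrial subunits differed in direction there. With AX-0085 added to IFN-γ all 13 were higher, with a median of 0.81, beside 17 of 64 nuclear members. Reads of these transcripts also set part of the library size, and without them the members numbered 34 lower and 9 higher with IFN-γ, and 29 lower and 6 higher with AX-0085.

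Assembly factors and mitochondrial ribosomal proteins, which are needed to build the chain but are not part of it, had more higher than lower genes with IFN-γ and, like the members, more lower than higher genes with AX-0085. Among all genes tested, 32.1% were higher and 36% lower with IFN-γ, and 26.7% and 26.6% with AX-0085. With AX-0085 added to IFN-γ, the shares were 33.7% and 32.8%. The share of assembly factors higher with IFN-γ, 34.1%, was near that of all genes. No difference between the lists was tested, and lists other than the members were not repeated under other scalings. Scaling by library size alone shifted the median of all genes with IFN-γ by -0.12. Of 44 assembly factors tested, 15 were higher and 11 lower with IFN-γ (median 0.08), 6 higher and 23 lower with AX-0085 (median -0.27), and 9 higher and 21 lower with AX-0085 added to IFN-γ (median -0.22). Of 62 mitochondrial ribosomal protein genes, 25 were higher and 14 lower with IFN-γ (median 0.14), 4 higher and 36 lower with AX-0085 (median -0.30), and 5 higher and 41 lower with AX-0085 added to IFN-γ (median -0.33). Of 75 cytosolic ribosomal protein genes, 46 were higher and 7 lower with IFN-γ and 63 higher and 4 lower with AX-0085. Of 21 tested genes of the tricarboxylic acid cycle and pyruvate dehydrogenase, 3 were higher and 13 lower with IFN-γ (median -0.33), and none was higher and 12 lower with AX-0085 (median -0.20). Of 16 glycolysis genes, 11 were lower with each agent alone (medians -0.80 and -0.72). The members had 54.7% of genes lower with IFN-γ. This was more than the mitochondrial ribosomal proteins (22.6%), assembly factors (25%) and cytosolic ribosomal proteins (9.33%). It was less than the mitochondrially encoded subunits (92.3%), glycolysis genes (68.75%) and genes of the tricarboxylic acid cycle and pyruvate dehydrogenase (61.9%).

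**Figure D5:**
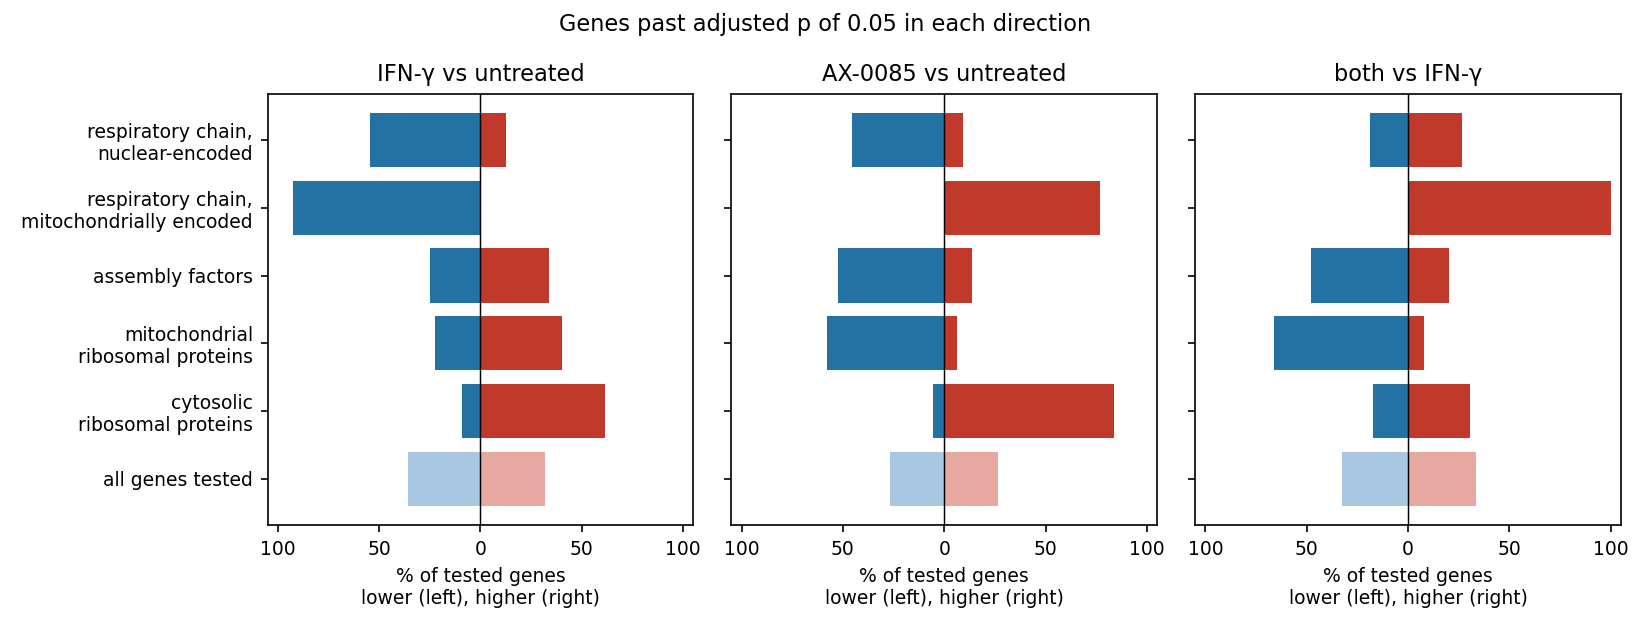
Percent of tested genes past an adjusted p of 0.05, lower to the left and higher to the right (x axis), for 5 gene lists and all genes (y axis), in 3 comparisons. With AX-0085 alone 45.3% of the nuclear-encoded members were lower while 76.9% of the mitochondrially encoded subunits were higher.

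Subunits and carriers that the name rule leaves out showed both directions. CYC1, the cytochrome c1 of complex III, was higher with IFN-γ (log2 fold change 0.29) and lower with AX-0085 (-0.61). CYCS, the mobile carrier cytochrome c, had values of 0.42 and -0.82, and -1.43 when AX-0085 followed IFN-γ. NDUFA4L2, a paralogue of NDUFA4 known for its rise in low oxygen, was at 1.79 and 1.51 CPM in untreated cells and between 5.46 and 7.45 CPM in all treated libraries. NDUFAB1, the acyl carrier subunit of complex I, was lower with AX-0085 (-0.38). Among 16 regulators of mitochondrial biogenesis, 8 were higher and 3 lower with IFN-γ, beside 32.1% and 36% of all genes. With AX-0085, 2 were higher and 10 lower, beside 26.7% and 26.6% of all genes. MYC, a general regulator of growth genes, rose with IFN-γ by 2.03 on the log2 scale, TFAM, which packages and transcribes mitochondrial DNA, had a log2 fold change of -0.03, and PPARGC1A stayed under 1 CPM in every library.

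Pseudogenes named after members, 188 in the annotation and 29 of them with counts, took as many counts as between 0.730% and 0.919% of the members' counts in a library. Across the 64 tested members, the log2 fold change with IFN-γ had a Spearman's rho of 0.19 with canonical transcript length, 0.29 with mean level and -0.07 with the percent of exon bases inside other genes. These are descriptions across genes that share libraries. Split by overlap, 19 of 34 members without any overlap and 16 of 30 with some overlap were lower with IFN-γ, with medians of -0.28 and -0.31.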

How the data were processed

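RNA-seq was measured in 8 libraries of A549 cells. The deposited values are whole-number read counts per gene, not normalized, which the authors made with featureCounts; the submitters' processing notes name bcl2fastq 2.20, Trim Galore 0.6.7 and STAR 2.7.9a. The annotation release, the strand setting and the treatment of multi-mapping reads are not given in the sources used here. Gene positions and overlaps were taken from GENCODE 44 (GRCh38), which held 60463 of the 60664 gene identifiers. No per-sample column was left unused.

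Counts were filtered by edgeR's filterByExpr, scaled by TMM and tested with edgeR 4.0.16 (R 4.3.3), glmQLFit and glmQLFTest, in one model over the 4 groups, with Benjamini-Hochberg adjustment and a threshold of 0.05. A total of 6 comparisons, including an interaction term, were made, and DESeq2 1.42.0 was an alternative. The scripts were tested on simulated data. Total counts per library (20672828 to 29978251) set the counting precision. Other scalings, filters, designs and omitted libraries were tried.

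The members and gene lists were chosen with earlier results of these data known. Named genes were, per complex and comparison, the called member with the largest change, without overlap between groups and a mean log2 CPM no lower than 2, every member called past 2-fold, fixed core subunits, isoform sets and the members under the filter. Other members named beside a count were named after their values were seen, and their calls were not followed by name in the other fits. Same-numbered libraries did not deviate together (correlations of deviations from -0.109 to 0.0873), so the numbers were not used to pair libraries. The values of 1 member by name and of 1 motif are not reported here.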

Additional observations from a re-analysis of the deposited data

Results flagged for a closer look

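For 26 members, edgeR's interaction test of AX-0085 in the presence and absence of IFN-γ gave an adjusted p under 0.05. It was positive for 23 (35.9%) and negative for 3 (4.69%), beside 26.7% and 23.6% of all genes. The values reported here are the log2 change in the presence of IFN-γ minus that in its absence. In complex I it was 1.32 for NDUFB6, 0.78 for NDUFS8, 0.72 for NDUFA2, 0.55 for NDUFB4, 0.51 for NDUFB3, 0.47 for NDUFA3, 0.43 for NDUFB7, 0.38 for NDUFV1, 0.32 for NDUFA12, 0.31 for NDUFA8, -0.36 for NDUFV3 and -0.41 for NDUFS4. In complex II it was 0.42 for SDHB and 0.38 for SDHC. In complex III it was 1.24 for UQCRHL, 0.74 for UQCR10 and 0.67 for UQCRH. In complex IV it was 2.55 for COX6B2, on few counts, 0.63 for COX6B1 and -0.64 for COX7A2L. In complex V it was 1.13 for ATP5IF1, 1.01 for ATP5MC3, 0.48 for ATP5ME, 0.37 for ATP5F1C and 0.29 for ATP5F1A. ATP5F1A missed the threshold in DESeq2 (0.26, adjusted p = 0.0538). Calls without single libraries were followed by name only for the named genes. Among these, ATP5F1A, SDHB, UQCR10 and COX6B2 lost their calls. The other members listed here, such as NDUFS8 and NDUFA2, were not followed by name. Without IFN-γ replicate 2, 14 members were positive and 8 negative.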

How the results depend on the processing

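Of the member counts and medians under all alternatives, 276 stayed within the limits set for an unchanged value, 44 moved and 1 reversed. For named members, a value called in neither fit was counted as kept whatever its sign. On that rule, 2422 values kept their side of the threshold, 153 lost their call, 82 gained one and 1 reversed. That was COX7B with AX-0085 added to IFN-γ, which missed the threshold at -0.02, passed as higher without IFN-γ replicate 1 (0.18) and passed as lower without IFN-γ replicate 2 (-0.20). Scaling by library size alone gave 3 higher and a median of -0.42 with IFN-γ, 33 higher, 7 lower and a median of 0.20 with AX-0085 added to IFN-γ, and 38 positive interactions with a median of 0.31. A test against a 1.2-fold change gave 3 higher with IFN-γ, 10 lower with AX-0085, 8 higher and 4 lower with AX-0085 added to IFN-γ, 2 higher and 5 lower for both agents against AX-0085, 19 lower for both against untreated cells, and 11 positive and 1 negative interactions. A fit of only the groups compared gave 11 higher for both against AX-0085. Leaving out 1 library in turn gave 3 to 12 higher, 28 to 42 lower and medians of -0.41 to -0.13 with IFN-γ. It gave 5 to 7 higher, 14 to 33 lower and medians of -0.23 to -0.10 with AX-0085. With AX-0085 added to IFN-γ it gave 10 to 26 higher, 7 to 21 lower and medians of -0.028 to 0.17. For both against AX-0085 it gave 3 to 9 higher, 10 to 21 lower and medians of -0.15 to -0.04, and for both against untreated cells 3 to 8 higher, 27 to 39 lower and medians of -0.28 to -0.21. For the interaction it gave 14 to 33 positive (2 to 6 past 2-fold), 2 to 8 negative and medians of 0.086 to 0.31. With the replicate number as a replicate block, 6 members were higher and 35 lower with IFN-γ, and no count moved by over 1.5 times. The block with the untreated numbers swapped, chosen after seeing the data, gave 5 negative interactions. The causes were not tested. Depth limits the members with few counts.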
